A study of Homo sapiens with 3 samples.

Results

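The cells described here are UCLA1 human embryonic stem cells that carried UMIs of the pluripotency factors SOX2 and POU5F1 and none of 3 primitive streak genes, compared between day 2 and day 1 of culture (GiMO in the labels). A UMI (unique molecular identifier) stands for 1 captured RNA molecule. A barcode was kept from 1000 genes upward if no more than 20% of its UMIs were mitochondrial, and a kept cell was a member if it held at least 1 UMI of SOX2 and of POU5F1 and 0 UMIs of TBXT, MIXL1 and MESP1. There were 2648 members among 3677 kept cells at day 1 and 1316 among 7892 at day 2, together 3964 of the 18830 kept cells of the series, which also has a day 3 library. The rule was set on measured values, so the share of members and the levels of those 5 genes are descriptions. The cells of day 2 are not the cells of day 1 seen again, and whether day 2 members had stayed pluripotent throughout cannot be told from these libraries.

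Both groups were UCLA1 cells covered with Geltrex, an extract rich in laminin and collagen, and dissociated with trypsin for droplet sequencing. The groups differ in the label only by day. The labels used here name no growth factor, dose or time of addition, and UCLA1 is 1 line. Each day is 1 library, so day, library and batch cannot be told apart, and no difference below has a replicate check. Intervals are exact 95% intervals that cover counting error only.

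SOX2 and POU5F1 (also called OCT4) act together in the epiblast to hold the network of genes that keeps cells able to form every germ layer. At gastrulation, WNT, BMP and NODAL signals switch on TBXT, MIXL1, EOMES and MESP1 in the primitive streak, where epiblast cells leave the epithelium and SOX2 falls in most of them. SP5 and AXIN2 are direct targets of WNT signalling, ID1 to ID4 are direct targets of BMP signalling, and LEFTY1 and LEFTY2 are targets and inhibitors of NODAL.

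One sequence is shown because its gene had the largest day 2 to day 1 ratio of the well detected signalling targets. It is the stretch of 250 bases before the start of SP5 (chr2:170715087-170715336, plus strand, GRCh38.p14, from RefSeq), with capitals marking TCAAAG or its reverse complement CTTTGA, the core letters bound by TCF and LEF factors, searched on both strands.

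SP5: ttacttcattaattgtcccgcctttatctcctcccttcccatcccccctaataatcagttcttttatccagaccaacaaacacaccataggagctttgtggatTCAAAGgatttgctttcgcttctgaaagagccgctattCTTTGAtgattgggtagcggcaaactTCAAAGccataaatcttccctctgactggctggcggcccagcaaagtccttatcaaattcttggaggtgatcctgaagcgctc

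The 3 matches begin 147, 109 and 83 bases before the start. These letters occur in 3102 of the 27305 such windows of the table (11.4%). Of the WNT response list, 8 of 15 genes had a window and 3 of them, DKK1, SP5 and SP8, held a match. A match describes letters and is not a measured binding site.

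Members made up 72.0% (70.5 to 73.5) of kept cells at day 1 and 16.7% (15.9 to 17.5) at day 2. The cells with a TBXT, MIXL1 or MESP1 UMI, called streak-positive cells here, went from 838 (22.8%) to 5807 (73.6%). Depth differed between the libraries, with a median of 41439 UMIs per member at day 1 and 15719 at day 2. When every cell was thinned to 5000 UMIs the rule took 51.5% and 16.2% of cells, and at 10000 UMIs it took 70.0% and 19.4%. Among cells with 10000 to 20000 UMIs as sequenced, members were 69.3% and 18.9%. Day 1 was therefore the higher library at each of these depths. Members held 124112299 UMIs at day 1 and 22252976 at day 2 in all, and 2 barcodes were shared between the member sets. Their median mitochondrial share was 4.40% and 4.00%, and ribosomal protein genes took 23.5% and 19.7% of their UMIs.

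The rule fixes that members hold both markers of the label, so their levels are a description. SOX2 stood at 206 CPM (UMIs scaled to a common library total) in members at day 1 and 202 at day 2, and POU5F1, which has near-identical copies that can share its reads, at 1184 and 1137. POU5F1 was nearly as high in streak-positive cells (1171 and 1037 CPM) and does not set members apart. In cells with at least 5 MESP1 UMIs at day 2, which should lack SOX2, 19.8% (17.2 to 22.6) held a SOX2 UMI at 23.6 CPM and a median depth of 17739 UMIs. Cells with no streak UMI held one in 65.4% at day 2, at a median depth of 13412 UMIs and 160 CPM. Membership at day 2 rested on fewer molecules, since the median member had 3 SOX2 UMIs against 8 at day 1, and 26.2% against 6.04% had a single one. Of the neural ectoderm genes, SOX1 was at 0 CPM in members on both days and PAX6 at 0.185 and 0.180 CPM. The 12 listed genes together had 159 and 137 CPM, so not all were near 0. Only 4 of 12 neural list genes reached 2 CPM, and ZNF521, a zinc finger factor, was the 1 past 1.5-fold (13.1 and 27.6 CPM). Of mesoderm genes, MSGN1 and MESP2 were below 1 CPM on both days. The 19 listed mesoderm genes together had 59.1 and 87.1 CPM, and some, such as KDR below, were not low. Definitive endoderm genes SOX17 (0.0403 and 0.809 CPM) and FOXA2 (0.0161 and 0.494 CPM) were also low. The 11 listed endoderm genes, which include EOMES and CER1, together had 26.5 and 43.2 CPM.

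Across 9568 genes that reached 10 CPM in either library, 232 (2.42%) were at least 2-fold higher at day 2 in members and 45 (0.47%) at least 2-fold lower, each with an interval that excluded 1. This split depends on the scaling: with TMM factors, which set the bulk of genes level, 75 (0.785%) were higher and 285 (2.98%) lower. The median log2 ratio of all genes was 0.24 by total UMIs and -0.10 by TMM, so single ratios are best read against these values. The genes named next are the 15 furthest each way by a rule that also required 2-fold in cells thinned to 5000 UMIs.

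**Figure D1:**
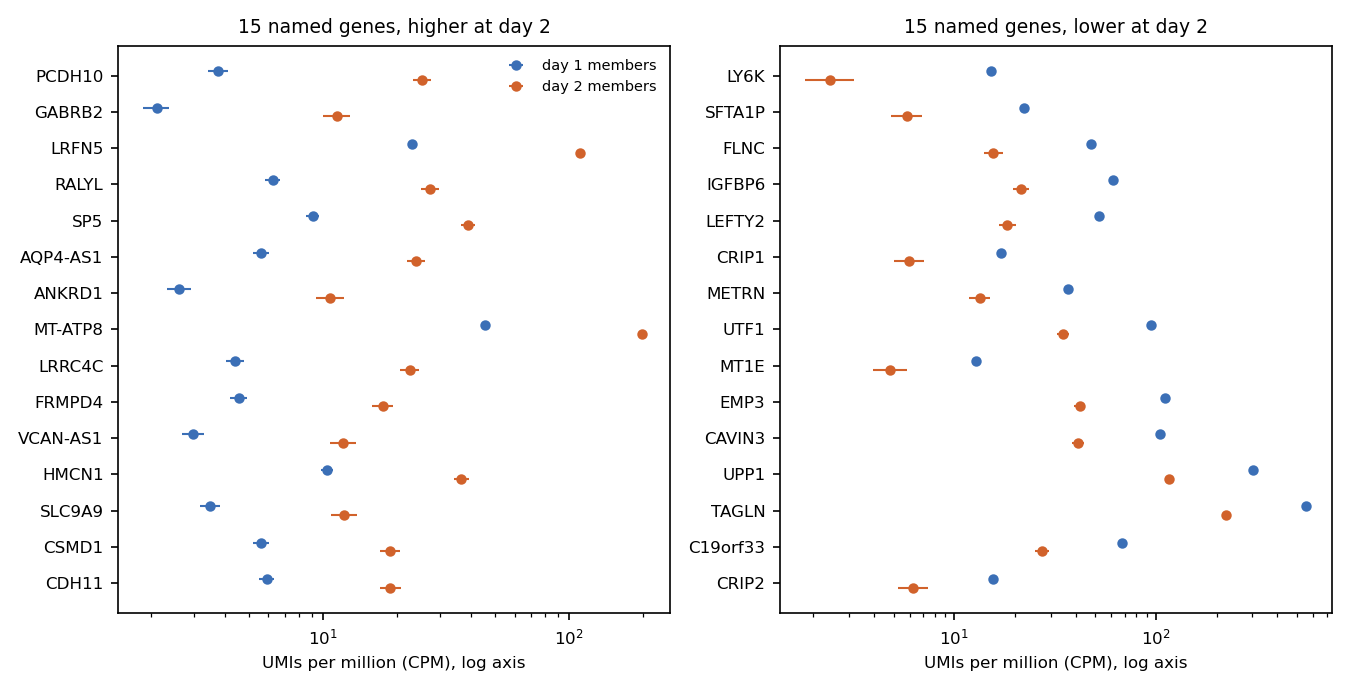
Level in members (CPM, log axis) of the 15 named genes higher and the 15 lower at day 2, with blue points for day 1, orange for day 2 and bars for the exact Poisson 95% interval (counting error only, 1 library per day). The intervals of the days do not overlap for any of the 30 genes, from LY6K (15.1 and 2.43 CPM) to PCDH10 (3.76 and 25.2 CPM).

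Among those lower, TAGLN (chr11:117199370-117207464), which encodes the actin-binding protein transgelin, had 555.5 CPM at day 1 and 221.3 at day 2, 2.51-fold lower (2.44 to 2.58). FLNC, encoding the actin cross-linker filamin C, had 47.8 and 15.6 CPM, 3.05-fold lower (2.74 to 3.41), and its log2 ratio of -1.61 was -2.40 among members with 10000 to 20000 UMIs. CAVIN3, a coat protein of caveolae, had 105.2 and 41.0 CPM, and the membrane protein gene EMP3 had 111.0 and 41.9. These 4 genes were lower at day 2 in streak-positive cells as well, where TAGLN had 524 and 167 CPM and FLNC 49.1 and 16.4.

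The other genes named as lower were mixed. UTF1 (chr10:133230217-133231558), a chromatin factor of undifferentiated cells, had 94.8 and 34.6 CPM, 2.74-fold lower (2.55 to 2.95). LEFTY2, the NODAL inhibitor, had 52.3 and 18.3 CPM. UPP1, which encodes uridine phosphorylase, was the most abundant after TAGLN with 301.8 and 116.6 CPM. LY6K, a GPI-anchored surface protein gene, had 15.1 and 2.43 CPM and was 6.24-fold lower (4.76 to 8.34), the largest fold of the 15. IGFBP6, SFTA1P, CRIP1, CRIP2, METRN, C19orf33 and MT1E make up the rest, with day 2 levels from 4.81 CPM (MT1E, a metallothionein with close copies whose reads may be split) to 27.1 CPM (C19orf33).

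Among genes higher at day 2, PCDH10, a protocadherin of cell adhesion, went from 3.76 to 25.2 CPM, 6.69-fold (5.90 to 7.58). SP5 (chr2:170715337-170718078), the WNT target whose upstream window is printed above, went from 9.08 to 38.9 CPM, 4.29-fold (3.92 to 4.69). Both were also higher in streak-positive cells, PCDH10 at 10.9 and 95.04 CPM and SP5 at 43.4 and 147 CPM, so day 2 members were near the level of day 1 streak-positive cells for SP5. CDH11, a cadherin of mesenchyme, had 5.91 and 18.8 CPM, and HMCN1, an extracellular matrix protein gene, 10.4 and 36.4.

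Several of the 15 are long genes best known from neurons. GABRB2, a GABA receptor subunit, had 2.11 and 11.4 CPM, LRFN5, a synaptic adhesion protein gene, 22.9 and 110.6, and LRRC4C 4.38 and 22.5. RALYL, CSMD1 and FRMPD4 are of this kind too. Among members with 10000 to 20000 UMIs the log2 ratio of GABRB2 was 1.43 in place of 2.43, that of CSMD1 0.96 in place of 1.74 and that of LRRC4C 1.71 in place of 2.36. SLC9A9, VCAN-AS1 and AQP4-AS1 were also among the 15. The sources used here do not say whether counting used strand, so reads of the antisense genes and their partners may be mixed.

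ANKRD1, a target of the YAP pathway, had 2.60 and 10.7 CPM over all members, but among members with 1000 to 2500 CPM of MALAT1, a nuclear RNA, its log2 ratio was -0.32. MT-ATP8, mitochondrially encoded, had 45.3 and 197 CPM, but 97.2 and 204 among members with 10000 to 20000 UMIs, where its log2 ratio was 1.07 in place of 2.12. It overlaps MT-ATP6 on the genome, which had 6523 and 7348 CPM, and the other 11 mitochondrial protein genes lay between log2 -0.32 (MT-CO3) and 1.17 (MT-ND6). MT-ATP8 was 5.03-fold higher in streak-positive cells.

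RNA that stays in the nucleus moved with these genes. All 4 measured genes of the nuclear-retained list were past 1.5-fold higher, against a background of 18.7% higher and 4.46% lower among the 14082 genes that reached 2 CPM. By TMM 2 of the 4 were higher and 0 lower, against a background of 6.17% and 15.7%. In streak-positive cells by total UMIs 3 of the 4 were higher and 0 lower, against 23.7% and 6.67%. MALAT1 had 1304 and 2712 CPM in members and 1143 and 2568 in streak-positive cells, and NEAT1 had 37.0 and 77.6 CPM in members. The log2 ratio of MALAT1 was 1.06 over all members, 0.27 among those with 10000 to 20000 UMIs and 0.97 among those with 20000 to 40000. Of the 15 long neuronal-type genes, a list drawn up with earlier results of these libraries known, 13 were higher and 0 lower. By TMM 8 were higher, and in streak-positive cells 11, with 0 lower in each. Their median log2 ratio in members was 0.93 (TMM 0.60). Among members with 1000 to 2500 CPM of MALAT1, 1120 and 567 cells, that median was 0.45 and the count of genes at least 2-fold higher was 114 in place of 232. Clone-named and LINC genes were 54 of the 232 (23.3%) and 274 of all 9568 (2.86%). Among members with 10000 to 20000 UMIs the list median was 0.48. The part of nuclear RNA and of depth in these results was not tested beyond these matched values.

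Core pluripotency genes were mostly within 1.5-fold between the days, with UTF1 the clear exception. Of 18 measured genes beside SOX2 and POU5F1, 3 were higher and 1 lower, near the shares over all genes (18.7% and 4.46%), and the median log2 ratio was 0.44 against 0.24 for all genes (TMM 0.10 against -0.10). DPPA4, a chromatin protein of pluripotent cells, had 260.6 and 450.1 CPM, 1.73-fold (1.69 to 1.77). DNMT3B, the de novo DNA methyltransferase, had 288 and 437 CPM, and GDF3, a ligand of the TGF-beta family, 20.9 and 43.3. NANOG, with 59.8 and 80.3 CPM, was 1.34-fold (1.27 to 1.41) and did not pass 1.5-fold. The L1TD1 level was 1076 and 1467 CPM. In streak-positive cells NANOG had 60.5 and 52.9 CPM and SOX2 144 and 58.0.

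The detection of single genes per cell was compared at 5000 UMIs a cell, which left 2641 and 1278 members. These members were chosen before thinning, so cells with streak genes were excluded at unequal depth between the days. NANOG was detected in 25.4% (23.8 to 27.1) of day 1 members and 32.8% (30.2 to 35.4) of day 2 members, and without thinning in 85.9% and 67.8%. UTF1 was detected in 32.4% and 14.7% (78.5% and 32.1% without thinning). The summed UMIs of the 18 core genes per cell had medians of 20 and 26, with the middle 90% of cells from 10 to 31 at day 1 and from 14 to 38 at day 2. At this fixed total per cell the day 2 distribution lay higher and overlapped that of day 1. Summed over members, the 18 genes had 4064 and 5280 CPM by total UMIs, but 4561 and 4705 by TMM.

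**Figure D2:**
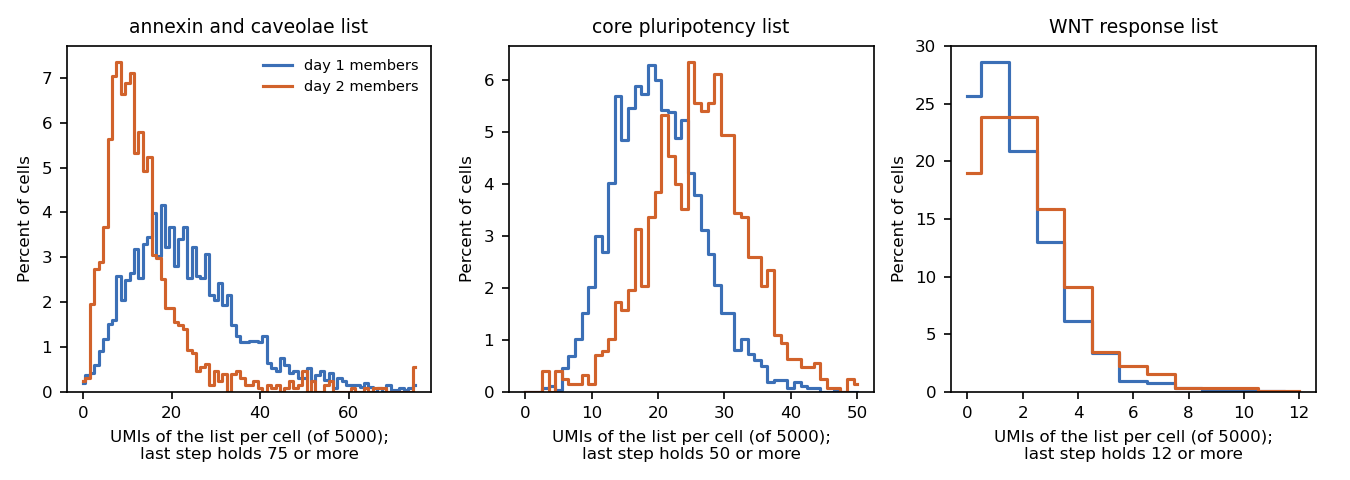
Percent of members (vertical axis) by the number of UMIs of a gene list in a cell thinned to 5000 UMIs (horizontal axis), for the annexin and caveolae, core pluripotency and WNT response lists, with day 1 in blue and day 2 in orange. The annexin and caveolae median moved from 22 to 11, the core pluripotency median from 20 to 26 and the WNT response median from 1 to 2, with overlap in each.

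Primed epiblast genes, which mark the state of the post-implantation epiblast, had 4 of 16 higher and 0 lower, not far from the 18.7% and 4.46% over all genes, and a median of 0.32 that became -0.01 by TMM. The 4 were ZIC2 (41.6 and 73.8 CPM), ZIC5 (8.63 and 15.4), OTX2 (7.84 and 14.5) and CYTL1 (7.71 and 12.5), the first 3 being transcription factors of epiblast and early neural tissue. Naive pluripotency genes were scarce, as 4 of 10 reached 2 CPM. TFAP2C, shared by naive cells, amnion and germ cells, was lower (14.2 and 8.63 CPM), and KLF17 was at or below 0.00806 CPM. Of 10 DNA methylation genes, DNMT3B, TET2 (2.58 and 5.80 CPM) and TET3 (26.5 and 41.5 CPM) were higher and 0 lower. By TMM 1 of the 10 was higher and 1 lower.

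Of the WNT response list, 5 of the 11 measured genes passed 1.5-fold higher, 6 did not pass and 0 were lower, and the median was 0.58 (TMM 0.25, also 5 and 0). Over all genes 18.7% were higher and 4.46% lower (TMM 6.17% and 15.7%). AXIN2, a feedback inhibitor, had 5.97 and 14.7 CPM, 2.47-fold (2.16 to 2.82), and LEF1, a nuclear effector of the pathway, 4.62 and 12.7 CPM, 2.75-fold (2.38 to 3.18). TNFRSF19 (0.604 and 2.52 CPM) and the inhibitor APCDD1 (1.55 and 3.82) were higher from low levels. Among members with 10000 to 20000 UMIs their log2 ratios were 0.86 in place of 2.06 and 0.27 in place of 1.30. DKK1 stayed below 2 CPM in members (0.209 and 1.44) while it had 1.19 and 38.5 CPM in streak-positive cells. There 10 of 14 genes were higher, against 23.7% of all genes, with a median of 1.07.

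At 5000 UMIs a cell, SP5 was detected in 4.17% (3.44 to 5.00) of day 1 members and 17.9% (15.9 to 20.1) of day 2 members (20.3% and 35.0% without thinning). AXIN2 was detected in 2.92% and 7.75% (20.5% and 20.8% without thinning), and LEF1 in 2.20% and 5.48% (14.2% and 14.3%). With detection at equal depth, the day 2 shares were higher for these 3 genes. The rule itself had been applied at unequal depth, and its part in these shares was not tested. Most members held no UMI of them at that depth. Of the 14 measured WNT ligand, receptor and secretion genes 7 were higher and 0 lower (median 0.52, TMM 0.19). Over all genes the shares were 18.7% and 4.46%. By TMM 2 of the 14 were higher and 1 lower, against 6.17% and 15.7% over all genes. The 7 higher by total UMIs were WLS, needed to secrete WNT proteins (9.24 and 25.7 CPM), the ligands WNT5A and WNT5B, the receptors FZD3, FZD5 and FZD7, and the co-receptor LRP6 (53.9 and 86.7 CPM). WNT3, the ligand that starts streak formation in the mouse, had 34.3 and 40.2 CPM.

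After SP5 had been seen among the named genes, thinned members were divided by whether they held an SP5 UMI, 110 against 2531 cells at day 1 and 229 against 1049 at day 2. These cells held 122 and 301 SP5 UMIs in all, so most had 1, and whether members differ in SP5 beyond sampling was not tested. EOMES, a T-box factor of the streak, was 4.22-fold higher (2.61 to 6.55) in SP5-positive members at day 1, with 43.6 and 10.4 CPM, and 2.22-fold higher (1.60 to 3.05) at day 2, with 51.5 and 23.3 CPM. NODAL had 109 and 48.0 CPM at day 1 and 131 and 84.5 at day 2, and FST, a secreted activin inhibitor, was 2.25-fold and 2.14-fold higher on these days. TERF1, a telomere protein abundant in stem cells, was 1.60-fold lower in SP5-positive members at day 1 and 1.34-fold lower at day 2, and DNMT3B was 1.51-fold and 1.25-fold lower. Other genes did not follow on both days. POU5F1 ratios were 1.01 (0.933 to 1.09) and 1.11 (1.04 to 1.17), L1TD1 ratios 0.850 and 0.992 and UTF1 ratios 1.07 and 0.717. WLS was 4.51-fold higher at day 1 but 1.10-fold (0.725 to 1.63) at day 2, and MSX2 2.91-fold and 1.05-fold. NANOG ratios were 0.891 (0.592 to 1.29) and 1.01 (0.799 to 1.28), and AXIN2 ratios 0.896 (0.181 to 2.72) and 1.28 (0.757 to 2.07), so no difference was detectable at this depth for those genes. The SP5-negative members also differed between days, with EOMES at 10.4 and 23.3 CPM, TAGLN at 535 and 203 and UTF1 at 95.4 and 37.8.

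Of the primitive streak genes that the rule did not use, 7 of 13 measured in members were higher and 1 lower, and the median was 0.69 (TMM 0.24, 3 higher and 1 lower of 12). Over all genes 18.7% were higher and 4.46% lower (TMM 6.17% and 15.7%). Among members with at least 2 SOX2 and 2 POU5F1 UMIs the list median was 0.14, and the median of all genes over all members was 0.24. EOMES had 12.5 and 30.6 CPM, 2.44-fold (2.23 to 2.67), against 45.2 and 117 in streak-positive cells. GATA6, a factor of mesoderm and endoderm, had 0.403 and 2.07 CPM against 0.746 and 63.8. CER1, a secreted NODAL and WNT antagonist, was lower in members (11.4 and 5.71 CPM) while it was higher in streak-positive cells (8.25 and 59.8). Its log2 ratio of -1.0004 in members was -0.093 among those with 20000 to 40000 UMIs and -1.87 with 10000 to 20000. Streak-positive cells had 13 of 16 higher, 0 lower and a median of 1.77, though those cells were chosen by such genes. Of all genes measured in them 23.7% were higher and 6.67% lower. Of the 19 mesoderm genes 10 reached 2 CPM in members, 4 higher and 1 lower (median 0.36). The receptor genes KDR (19.2 and 40.6 CPM) and APLNR (0.137 and 2.20) were among the higher ones. By TMM 1 of 8 measured mesoderm genes was higher and 1 lower (median -0.16), to be read beside the shares over all genes in members given above. EOMES was detected in 5.19% and 12.2% of members at 5000 UMIs (28.2% and 31.5% without thinning).

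The values at the edge of the rule show where such genes lie. At day 1 SP5 had 8.50 CPM in members with 2 or more SOX2 UMIs, 29.1 in those with 1, and 21.0 in SOX2-positive cells left out for a single streak UMI. At day 2 the same values were 35.4, 52.9 and 60.1 CPM, and SOX2-positive cells with 2 or more streak UMIs had 138. UTF1 at day 2 was 35.4, 31.4, 33.5 and 17.4 CPM over these 4 sets, and TAGLN 219, 229, 228 and 189. TAGLN at day 1 was 560, 409, 536 and 541 CPM, above every day 2 set. The sets with a single SOX2 UMI had median depths of 20153 and 12844 UMIs at days 1 and 2.

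NODAL pathway genes were split. The ligand NODAL had 49.8 and 88.8 CPM, 1.78-fold (1.69 to 1.88), while its inhibitors LEFTY1 (82.0 and 49.7 CPM) and LEFTY2 and the antagonist CER1 were lower. For CER1 the size of the fall depended on depth, as given above. GDF3 was also higher, and the median of the list was 0.29, which became -0.04 by TMM. At 5000 UMIs NODAL was detected in 20.4% and 33.9% of members and LEFTY1 in 25.9% and 18.0% (66.8% and 64.6%, and 64.4% and 36.6%, without thinning). The co-receptor TDGF1 had 201.6 and 286.6 CPM and was not past 1.5-fold.

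Of the BMP response list, 4 of 10 measured genes were lower at day 2, 1 was higher and 5 passed neither way, and the median was -0.23 (TMM -0.56, 5 lower and 1 higher). The shares over all genes were 4.46% lower and 18.7% higher (TMM 15.7% and 6.17%). ID1, whose protein blocks helix-loop-helix transcription factors, had 740 and 427 CPM, 1.73-fold lower (1.70 to 1.77), and ID3 had 676 and 382 CPM. ID4 (67.9 and 32.9) and BAMBI, a decoy receptor induced by BMP (138.6 and 75.8), completed the 4. MSX1 was higher, at 1.68 and 4.94 CPM, and its log2 ratio of 1.55 was 0.28 by the thinned rule. ID1 had 748 and 462 CPM in streak-positive cells, while ID4 had 71.8 and 60.8 there. Among 14 ligands, receptors and antagonists, BMP2 (1.14 and 3.68 CPM), GDF3, BMPR1B and ACVR1 were higher and the antagonist GREM1 lower. By TMM 2 of the 14 were higher and 1 lower. The log2 ratio of BMPR1B was -0.010 among members with 10000 to 20000 UMIs. BMP4 itself had 16.6 and 14.9 CPM in members and 21.3 and 33.8 in streak-positive cells.

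**Figure D3:**
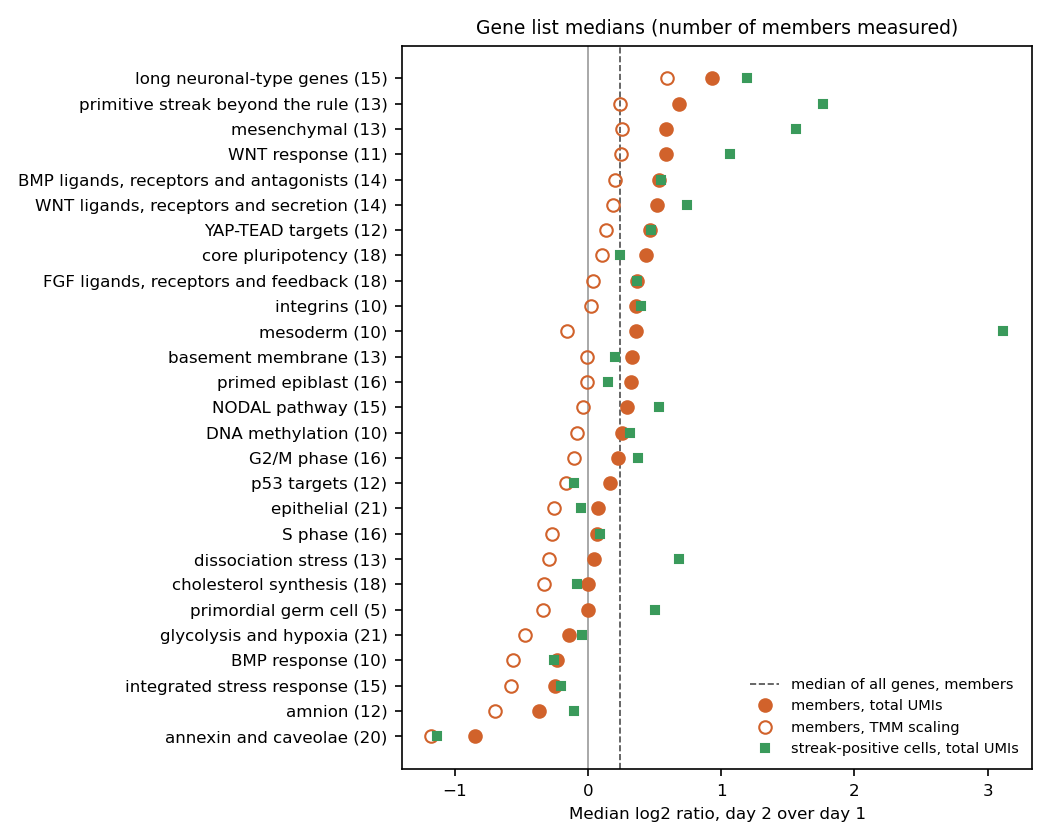
Median log2 ratio of day 2 over day 1 (horizontal axis) for 27 gene lists with at least 5 measured genes, in members by total UMIs (filled circles) and TMM (open circles) and in streak-positive cells by total UMIs (squares), with the number of genes measured in members in brackets. The annexin and caveolae list is lowest (-0.85 in members) and the long neuronal-type list highest (0.93), and the dashed line marks the median of all genes in members (0.24).

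The amnion list, a fate that BMP can induce in these cells, had 4 of 12 measured genes lower and 2 higher (median -0.37, TMM -0.70 with 7 lower and 1 higher). Over all genes 4.46% were lower and 18.7% higher (TMM 15.7% and 6.17%). GATA3 had 19.3 and 9.62 CPM, 2.01-fold lower (1.74 to 2.32), GATA2 3.88 and 1.17, and TFAP2A 9.16 and 7.32, short of 1.5-fold. The other 2 lower were TFAP2C and KRT7. ISL1 (1.09 and 2.56 CPM) and TBX3 were the 2 higher, and both turned direction in other settings (ISL1 log2 -0.67 by the thinned rule, TBX3 -0.086 with at least 2 SOX2 and POU5F1 UMIs). GATA3 was detected in 8.86% and 4.23% of members at 5000 UMIs (46.0% and 12.7% without thinning). Of the 5 measured primordial germ cell genes 2 were higher, KIT and PRDM1, and 2 lower, TFAP2C and SOX15.

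Of 18 FGF genes 5 were higher and 1 lower, around a median of 0.37 (TMM 0.04, 3 higher and 2 lower). Over all genes 18.7% were higher and 4.46% lower (TMM 6.17% and 15.7%). FGF8 (2.39 and 6.61 CPM), FGF4 and FGF19 are ligands, SPRED1 and ETV1 act downstream, and the receptor gene FGFR3 was lower (13.7 and 5.35 CPM). FGF2, the factor that supports primed stem cells, had 126 and 142 CPM.

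Annexin and caveolae genes formed the list with the lowest median. It was drawn up with earlier results of these libraries known, so its direction is no independent evidence. Of 20 genes 12 were lower and 1 higher, and the median was -0.85 (TMM -1.18, 14 lower). Over all genes 4.46% were lower and 18.7% higher (TMM 15.7% and 6.17%). CAV1, the main caveolar coat protein, had 207 and 90.7 CPM, 2.28-fold lower (2.18 to 2.39). ANXA1, a calcium-dependent membrane binder, had 126.5 and 52.0 CPM, ANXA2 598 and 292, and its partner S100A10 859 and 519. VIM, the intermediate filament vimentin, had 562 and 272 CPM. LGALS1, CAV2, CAVIN1, TAGLN2 and the genes described above were the rest, and EMP1 was the 1 higher (1.07 and 2.43 CPM), with a log2 ratio of -0.35 by the thinned rule.

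The shift was spread over the cells. At 5000 UMIs a cell, the 20 genes together had a median of 22 UMIs in day 1 members and 11 in day 2 members, and the middle 90% ran from 6 to 48 and from 3 to 32. TAGLN was detected in 83.5% and 51.3% of members, CAV1 in 55.2% and 31.8%, VIM in 69.9% and 44.6% and ANXA1 in 37.1% and 12.4%. Without thinning these shares were 98.4% and 78.7%, 90.9% and 60.3%, 94.2% and 66.3%, and 79.8% and 25.8%. In streak-positive cells 13 of 19 genes were lower, against 6.67% of all genes, with a median of -1.14. The CArG box, bound by serum response factor, matched 0 of the 16 listed genes with a window. It matched only 1.14% of all windows, so 0 of 16 cannot tell this list from all genes. TAGLN had no window.

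Epithelial genes had 1 of 21 higher and 3 lower (median 0.08, TMM -0.25 with 0 higher and 6 lower). The shares over all genes were 18.7% higher and 4.46% lower (TMM 6.17% and 15.7%). The 3 lower by total UMIs were keratins of simple epithelium, KRT8 (613 and 306 CPM), KRT18 (1525 and 816.7) and KRT19 (214 and 136), the first 2 of which have many near copies that can share reads. DSP, a desmosome protein gene, was higher. CDH1, the epithelial cadherin, had 66.4 and 95.9 CPM, 1.45-fold (1.38 to 1.52), and CDH2, the cadherin gained at the streak, 87.4 and 103.3 in members against 72.2 and 177 in streak-positive cells. CDH1 was detected in 26.2% and 38.4% of members and CDH2 in 32.1% and 35.1% at 5000 UMIs (85.2% and 72.8%, and 87.5% and 69.5%, without thinning).

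Among mesenchymal genes 7 of 13 were higher and 2 lower, around a median of 0.59 (TMM 0.25, 4 higher and 2 lower). Over all genes 18.7% were higher and 4.46% lower (TMM 6.17% and 15.7%). FN1, encoding fibronectin, had 41.1 and 99.5 CPM, 2.42-fold (2.30 to 2.54), and SERPINE2, a secreted protease inhibitor, 29.3 and 88.5. SNAI1, the factor that represses CDH1 at the streak, had 1.80 and 2.97 CPM and was detected in 0.984% and 1.17% of members at 5000 UMIs (7.97% and 4.86% without thinning), against 6.65% of streak-positive cells at day 2. Its log2 ratio was -0.27 among members with 10000 to 20000 UMIs, and that of the list 0.028. VIM and COL1A1 were the 2 lower.

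**Figure D4:**
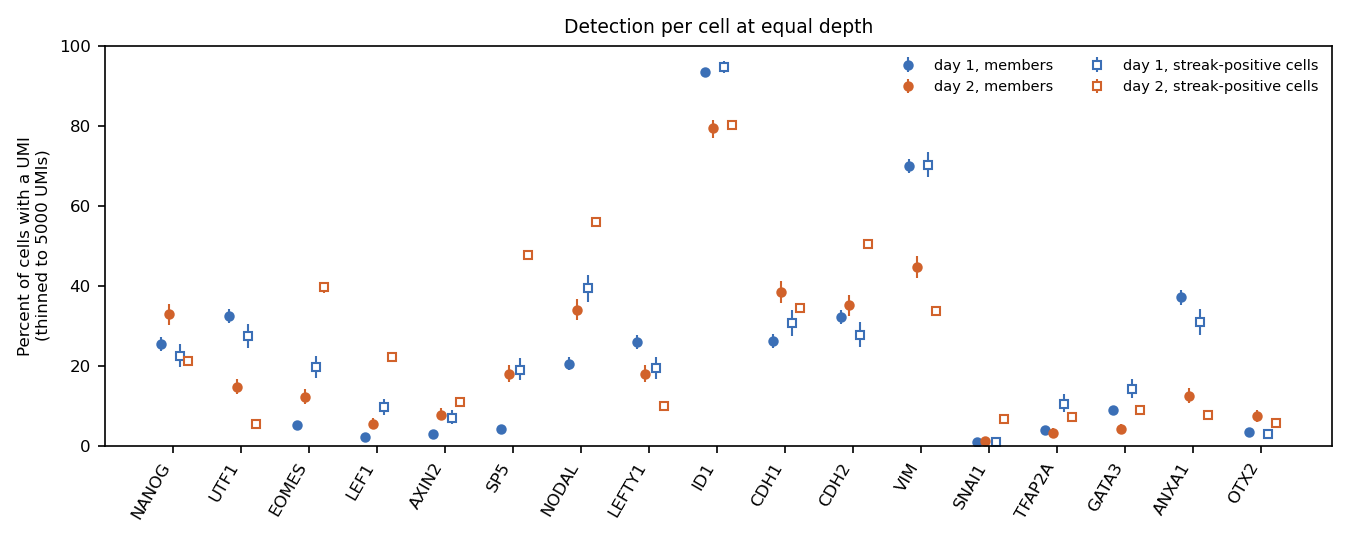
Percent of cells with a UMI of each gene after thinning to 5000 UMIs a cell (vertical axis), in members (filled circles) and streak-positive cells (open squares) at day 1 (blue) and day 2 (orange), with exact binomial 95% intervals that cover counting error only. Members lie between 4.17% and 17.9% for SP5 and fall from 37.1% to 12.4% for ANXA1, while SNAI1 is near 1% in members on both days.

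By total UMIs, at most 4 genes of each growth or stress list passed 1.5-fold in either direction. The shares over all genes were 18.7% higher and 4.46% lower. G2/M genes had 4 of 16 higher and 0 lower with a median of 0.23, near that of all genes (TMM -0.10). TOP2A, a topoisomerase of dividing cells, had 149 and 302 CPM. S phase genes had 1 of 16 higher (MCM2). Of 21 glycolysis and hypoxia genes PDK1 was higher and PKM (757 and 444 CPM) and ADM (110 and 46.5) lower. Cholesterol synthesis had MVK and MVD lower of 18, the integrated stress response ASNS lower of 15, and the p53 targets 3 higher of 12, among them MDM2. The dissociation list, which holds immediate early and heat shock genes, had 4 of 13 higher, including FOS (6.81 and 13.5 CPM) and HSPA1B, and a median of 0.04. By TMM, 0 of the 21 glycolysis and hypoxia genes were higher and 8 lower, and of the 15 stress response genes 0 and 7. Over all genes the TMM shares were 6.17% and 15.7%. The other lists here had from 1 (G2/M) to 4 (cholesterol synthesis) genes lower by TMM. Higher by TMM were 3 of 13 dissociation genes, with 2 lower. So were 2 of 16 G2/M genes and 1 of 12 p53 targets, and 0 of the S phase and cholesterol lists.

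Of 12 YAP target genes ANKRD1, AMOTL2, AMOT and LATS2 were higher and AXL lower (median 0.47, TMM 0.13). Basement membrane genes had LAMA1, LAMB1, COL4A5 and NID1 higher and COL18A1 lower of 13. Among 10 integrins, ITGA2 (4.46 and 11.1 CPM) and ITGB8 were higher and ITGA3 lower. By the thinned rule the log2 ratio of ITGA2 was 0.35 in place of 1.32, and that of AMOT 0.31 in place of 1.11. The shares over all genes were 18.7% higher and 4.46% lower (TMM 6.17% and 15.7%). By TMM 3 YAP target genes were higher and 1 lower, with 0 and 3 basement membrane genes and 2 and 2 integrins.

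Most large changes of members were also seen in streak-positive cells. Of the 232 genes higher in members 164 (70.7%) were at least 2-fold higher there, which is 33.2% of the 494 higher in those cells (5.08% of the genes measured in them). Of the 45 lower, 36 (80.0%) were lower there, 33.6% of 107 (1.1% of genes). The 2 comparisons use different cells of the same libraries, so a difference between libraries would appear in both.

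**Figure D5:**
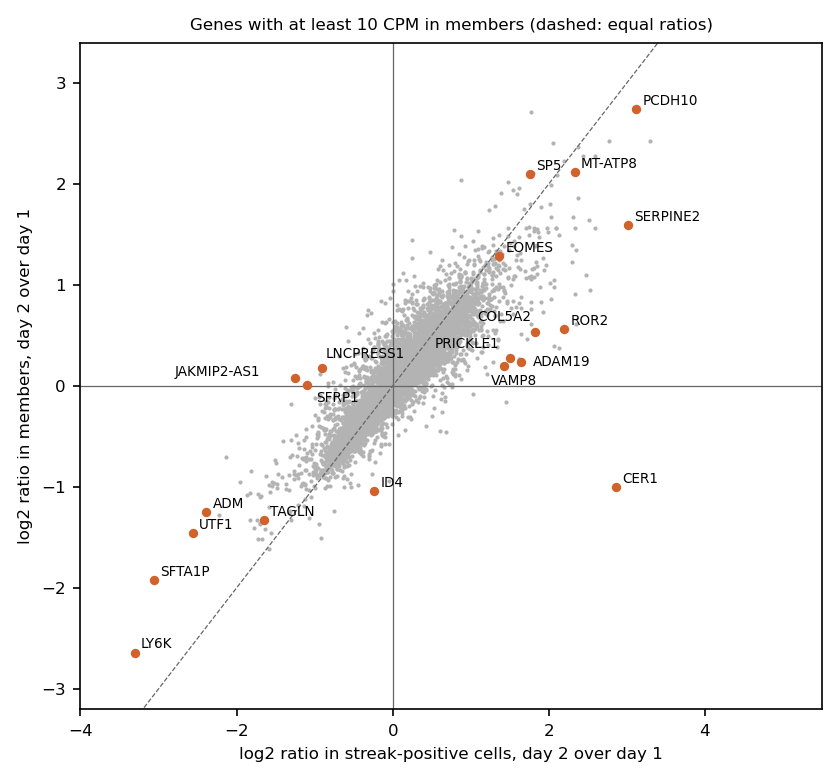
Log2 ratio of day 2 over day 1 in members (vertical axis) against streak-positive cells (horizontal axis) for 9568 genes with at least 10 CPM in members, with named genes in orange and the dashed line at equal ratios. CER1 and ROR2 lie to the right of the line and LNCPRESS1 and SFRP1 to the left.

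Where the higher member library reached 20 CPM, a few genes departed between the classes. ROR2, a receptor for WNT5A, had 18.9 and 27.9 CPM in members against 31.8 and 145 in streak-positive cells, and SERPINE2 had 88.5 at day 2 against 369. ADAM19, COL5A2, PRICKLE1 and VAMP8 were the other genes with the lower ratio in members, with day 2 levels from 20.2 to 55.3 CPM there and from 39.9 to 176 in streak-positive cells. In the other direction, LNCPRESS1, a long noncoding RNA of stem cells, had 167 and 189 CPM in members against 136 and 72.3, and SFRP1, a secreted WNT inhibitor, 31.8 and 32.0 against 21.3 and 10.0. JAKMIP2-AS1 had 28.0 and 29.5 against 19.9 and 8.34, and UTF1 had 34.6 at day 2 against 13.3. ADM and SFTA1P had the same pattern. By TMM the small positive log2 ratios of LNCPRESS1, ADAM19, VAMP8, PRICKLE1, SFRP1 and JAKMIP2-AS1 in members became values from -0.32 to -0.058. CER1, described above, departed more (log2 -1.0004 in members and 2.86 in streak-positive cells) but lay under the 20 CPM minimum. No test of these departures could be made with 1 library per day.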

How the data were processed

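The authors deposited raw UMI counts per gene and barcode, 1 filtered matrix per library, made with Cell Ranger 5.0.1 on hg38 per the submitters' processing notes. These deposited counts are not normalized, and the sources used here give no later cell filter. Samples were grouped by the day in the labels. The 3 libraries held 177597152, 140291909 and 154373927 UMIs at days 1 to 3, and the cell filter removed 1212, 2688 and 599 barcodes.

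Counts of members were summed per library and divided by the total (CPM), with exact Poisson intervals, and ratios have exact conditional binomial intervals. Genes were called at 2-fold with 10 CPM in the higher library, and list genes at 1.5-fold with 2 CPM, where the 95% interval excluded 1. With 1 library per day no test was run. Named genes were the 15 furthest each way in both raw and thinned members and the 6 departing most each way from streak-positive cells among genes with 20 CPM in the higher member library, leaving out clone-named and sex-linked marker genes. Members and lists were chosen with earlier results of these data known.

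Alternatives were TMM (edgeR 4.0.16) and median-of-ratios scaling, thinning, depth windows, other minimums and stricter rules. Doublets were kept in the main values. Scrublet (scanpy 1.11.5) scores gave an alternative without the highest 108 and 498 kept cells. Python 3.11.15, numpy 2.4.6 and scipy 1.17.1 were used, and the calls were tested on simulated data. Gene positions are from GENCODE 44 on hg38, matched by identifier.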

Additional observations from a re-analysis of the deposited data

Results flagged for a closer look

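In the day 3 library, which no comparison above uses, 52 of 7261 kept cells (0.716%) met the rule, where a count of 0 would allow 0.0413%. Any count above 3 cells passes that limit, and at day 3 a SOX2 UMI was also held by 3.10% of cells with at least 5 MESP1 UMIs. Those 52 cells had SOX2 at 179 CPM and POU5F1 at 1001. L1TD1 stood at 1692 CPM (1467 in day 2 members), UTF1 at 15.9 (34.6), TAGLN at 132 (221.3) and CAV1 at 19.7 (90.7). HAND1, a mesoderm and amnion gene, had 35.6 CPM against 2.52 in day 2 members.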

How the results depend on the processing

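No paired analysis was possible because each day is 1 library, and for the same reason no replicate could be left out. Members were 69.3%, 77.5%, 51.5% and 70.0% of day 1 cells with 10000 to 20000 UMIs, with 20000 to 40000 UMIs, thinned to 5000 and thinned to 10000, and 18.9%, 15.3% and 19.4% of day 2 cells in the same settings without the thinning to 5000. The counts of genes at least 2-fold higher and lower (232 and 45) were 75 and 285 by TMM, 77 and 270 by median of ratios, 151 and 91 among members with 10000 to 20000 UMIs, 728 and 93 with a minimum of 2 CPM, and 2326 and 238 with none. The lower count was 79 under the thinned rule and 77 with ribosomal and mitochondrial genes out of the total, and the higher count was 114 among members matched on MALAT1. That matching and that total were chosen after seeing the data. Of the 404 list medians under alternatives, 363 stayed on the same side of 1.5-fold, as did 4556 of 5066 gene values, and a change of sign between values short of 1.5-fold is not counted as a change here.

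The other list medians were as follows. WNT response was 0.97 as a mean over cells, 1.20 thinned to 5000, 0.82 with 20000 to 40000 UMIs, 0.63 with at most 10% mitochondrial UMIs, 1.42 without 6 further streak genes, 1.30 with no minimum, 0.72 matched on MALAT1 and 0.86 with the reduced total. Streak genes beyond the rule were 0.24 by TMM, 0.25 by median of ratios, 0.55 with 20000 to 40000 UMIs and also with at most 10% mitochondrial UMIs, 0.14 with at least 2 SOX2 and POU5F1 UMIs and 0.53 with a list minimum of 10 CPM. Mesenchymal genes were 0.25, 0.26, 0.41, 0.46, 0.028, 0.43, 0.57, 0.35, 0.20 and 0.51 by TMM, median of ratios, thinning to 5000 and to 10000, 10000 to 20000 UMIs, at least 2 UMIs, no further streak genes, the 10 CPM minimum, MALAT1 matching and the reduced total. Amnion genes were -0.70, -0.69, -0.69, -0.72 and -0.70 by TMM, median of ratios, at least 2 UMIs, the 10 CPM minimum and MALAT1 matching. WNT ligands were 0.63 and 0.66 with the 10 CPM minimum and none. Mesoderm was 0.59 as a mean over cells, 0.65 thinned to 5000 and 1.24 with no minimum. Germ cell genes were -0.92 thinned to 5000, -0.72 with the 10 CPM minimum and 0.87, a turned direction, with none. BMP response was -0.67 with 10000 to 20000 UMIs, G2/M 0.64 with 20000 to 40000, and long neuronal-type genes 0.48 with 10000 to 20000 and 0.45 matched on MALAT1.

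Genes past 1.5-fold here or in the alternative that turned direction (log2) were BMPR1B (-0.010), ISL1 (-0.52), SNAI1 (-0.27), ZEB2 (-0.042) and EMP1 (-0.14) with 10000 to 20000 UMIs, ISL1 (-0.67) and EMP1 (-0.35) thinned to 5000, and TBX3 (-0.086) with at least 2 UMIs. Matched on MALAT1, they were ANKRD1 (-0.32), TBX3 (-0.12), ZEB1 (-0.50), ZEB2 (-0.26) and EMP1 (-1.0002). CDX2 was 0.99 without the further streak genes. The ratio moved by over 1.5 times in at least 1 alternative for 11 of the 30 named genes, and for 47 of 132 list genes past 1.5-fold. Beside those given above, named genes so moved were SP5 (3.11 without the further streak genes), CDH11 (2.41 thinned to 5000, 0.98 matched on MALAT1), and, matched on MALAT1, RALYL (1.40), VCAN-AS1 (1.34) and SFTA1P (-3.30). The cause of these changes was not tested. Day 2 depth limits genes of a few CPM.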
